A study of Heterocephalus glaber and Mus musculus with 9 samples.

Results

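Glycolysis splits glucose into pyruvate in the cytosol, and lactate dehydrogenase then turns pyruvate into lactate, which allows ATP to be made without oxygen. The hypoxia-inducible factors (HIF) are pairs of an oxygen-labile alpha subunit and the stable partner Arnt. Prolyl hydroxylases mark the alpha subunits for breakdown when oxygen is present, and in low oxygen HIF raises many glycolytic genes. Mature red cells live on glycolysis alone, and erythroblasts are abundant in spleens that make blood. The naked mole-rat (NM-R, Heterocephalus glaber) lives in crowded burrows poor in oxygen and is known for surviving without oxygen with the help of fructose-driven glycolysis.

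The genes described here were picked from the table by their symbols. They are the hexokinases, phosphofructokinases, aldolases, phosphoglycerate kinases and mutases, enolases, lactate dehydrogenases, Slc2a sugar transporters, pyruvate dehydrogenase kinases, HIF prolyl hydroxylases and vascular endothelial growth factors, plus single genes such as Gapdh, Tpi1, Pkm, Pklr, Khk, Hif1a, Hif1an, Epas1 and Arnt. These rules found 44 of the 12946 genes of the table. The carbonic anhydrases and glucose-phosphate isomerase are listed there as Ca and Gpi instead of Car and Gpi1, and these 15 rows are described beside the 44 after that was seen. More than 3 reads in at least 1 spleen of each species were found for 40 of the 44; Eno4, Ldhc, Slc2a2 and Slc2a12 were at 3 reads or fewer in every mouse. No row under the symbols Ldha, Eno1, Aldoa, Egln1, Vegfa or Vhl was analysed here.

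Spleen RNA was sequenced from 3 male wild-type (WT) C57Bl/6N mice aged 2 months and from 6 NM-Rs of the african naked mole-rat strain, 3 with a small spleen (ssNM-R 2, 3 and 6, aged 30, 26 and 23 months, all male) and 3 with an enlarged spleen (lsNM-R 1, 4 and 5, aged 24, 29 and 23 months, of which lsNM-R 4 was female and the others male). All animals were healthy and untreated; mice were housed at about 22 °C and NM-Rs at 29 °C. Species, genome, age and housing go together in this design and cannot be told apart. Values are normalized counts, that is, reads per gene divided by a size factor of the library, with no correction for gene length, so a level is compared between species only with the reservation that the gene models of the 2 species differ.

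Reads counted to the 12946 genes of the table numbered between 7815326 and 18387599 per library (median 10965902). Among NM-Rs, ssNM-R 2, ssNM-R 3 and lsNM-R 1 were shallow, at 7815326 to 8985705. The deep libraries were ssNM-R 6, lsNM-R 4 and lsNM-R 5, at 16883689 to 18387599, and the depth class of the fits marks these. The floor, taken as 3 reads, lay between 1.88 and 4.5 normalized counts. The 12 erythroid markers in the table summed to between 27204 (mouse 1) and 79863 (mouse 3) normalized counts in mice and between 163468 and 242966 in NM-Rs, whereas the 11 B cell markers summed to between 65222 and 66223 in mice and between 3285 and 8367 in NM-Rs. In bulk RNA, fewer cells of a type and less RNA per cell cannot be told apart. Liver markers stood apart in ssNM-R 6 (sum 3009, Alb 2173) and lsNM-R 5 (sum 945, Alb 694) against 138 to 380 in the other NM-Rs and 164 to 335 in mice.

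Promoters of the mouse genes, from 250 bases before to 50 after the most upstream annotated start of a coding transcript, were read from the mouse genome mm9 to show which letters stand in front of genes that moved in opposite directions. The HIF core was searched as ACGTG or GCGTG and the GATA motif as any of the letters AGATAA, the letters AGATAG, the letters TGATAA and the letters TGATAG, on both strands. A CACGTG palindrome, which is also a site for other factors, counts once on each strand. The glucose carrier Slc2a1 and the kinase Pdk1 are shown because both hold 2 HIF cores while Slc2a1 was higher and Pdk1 lower in NM-Rs. The pyruvate kinase genes Pklr and Pkm are shown because each holds 1 GATA motif and 0 HIF cores while Pklr was higher and Pkm lower. Capitals mark the motifs, and all 4 genes are on the plus strand.
Slc2a1 (HIF cores 27 and 2 bases upstream of the start, chr4:118781066-118781365): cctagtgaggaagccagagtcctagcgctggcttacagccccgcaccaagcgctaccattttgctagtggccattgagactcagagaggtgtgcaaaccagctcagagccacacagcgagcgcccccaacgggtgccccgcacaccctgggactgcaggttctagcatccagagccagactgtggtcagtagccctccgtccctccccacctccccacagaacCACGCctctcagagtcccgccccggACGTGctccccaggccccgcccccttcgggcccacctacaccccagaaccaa
Pdk1 (HIF cores 78 and 2 bases upstream, chr2:71711031-71711330): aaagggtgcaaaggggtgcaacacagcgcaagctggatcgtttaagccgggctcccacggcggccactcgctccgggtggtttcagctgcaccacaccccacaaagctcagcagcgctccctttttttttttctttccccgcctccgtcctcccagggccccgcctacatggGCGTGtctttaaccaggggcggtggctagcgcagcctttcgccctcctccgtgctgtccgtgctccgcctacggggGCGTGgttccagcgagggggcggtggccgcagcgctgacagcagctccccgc
Pklr (GATA motif 35 bases upstream, chr3:88939814-88940113): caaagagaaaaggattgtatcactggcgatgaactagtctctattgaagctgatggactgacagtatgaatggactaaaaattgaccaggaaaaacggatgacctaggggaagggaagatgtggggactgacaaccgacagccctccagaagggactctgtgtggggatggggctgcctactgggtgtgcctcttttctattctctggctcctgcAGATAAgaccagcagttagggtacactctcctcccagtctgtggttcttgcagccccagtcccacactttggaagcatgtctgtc
Pkm (GATA motif 32 bases upstream, chr9:59504133-59504432): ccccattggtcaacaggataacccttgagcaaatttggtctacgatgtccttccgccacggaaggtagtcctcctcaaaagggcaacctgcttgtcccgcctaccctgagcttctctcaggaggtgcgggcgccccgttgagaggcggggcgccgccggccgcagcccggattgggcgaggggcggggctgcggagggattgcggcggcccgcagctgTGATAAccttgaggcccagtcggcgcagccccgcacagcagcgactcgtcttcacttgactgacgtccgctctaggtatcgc
A HIF core was found in 25 of the 44 promoters (56.8%), against 48.3% of the promoters of all 22372 coding genes. It was found in 12 of the 24 genes higher in NM-Rs and in 8 of the 13 lower ones. The GATA motif was found in 10 of the 44, against 27.4% of all promoters. A match is a string of letters in the mouse genome and not a bound site, and promoters of the NM-R were not analysed here.

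Whether glycolytic and oxygen-sensing genes differ between the spleens of the species was asked with a limma fit over all genes. Of the 44 genes, 24 were higher in NM-Rs than in mice, 13 were lower and 7 did not pass an adjusted p of 0.05. The 24 include Eno4, Ldhc and Slc2a12, which were at the floor in every mouse and entered the table through their NM-R reads. Of the 40 genes above the floor in both species, 21 were higher, 13 lower and 6 not called, with a median log2 fold change of 0.47. Of all genes tested, 39.7% were higher and 38.8% were lower. The median log2 fold change of the 44 was 0.58, against 0.01 over all genes, and single values ran from -3.34 (Pdk4) to 4.2 (Pklr). In 34 of the 44 genes the 6 NM-R spleens did not overlap the 3 mouse spleens, which also held for 72.6% of all genes. Both directions occurred among the transporters, the upper and lower enzymes, the lactate dehydrogenases, the pyruvate dehydrogenase kinases and the hydroxylases. Against mice, ssNM-Rs were higher in 23 genes and lower in 14 (of all genes 38.0% and 37.5%), and lsNM-Rs were higher in 24 and lower in 12 (38.1% and 37.0%); both comparisons use the same 3 mice.

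**Figure D1:**
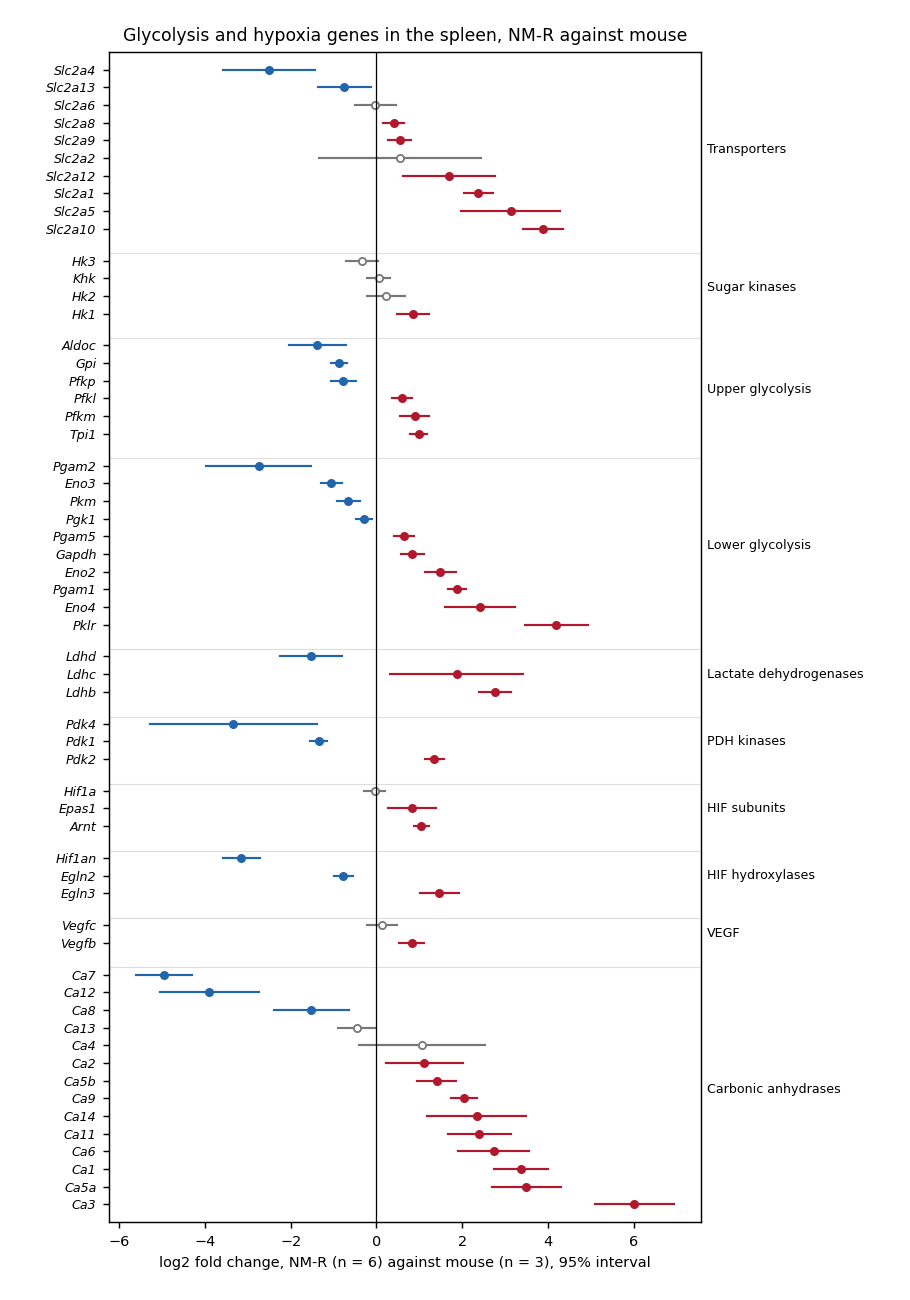
The log2 fold change between NM-R (n = 6) and mouse (n = 3) for the reported genes and the related rows is plotted with its 95% interval and grouped by role, in red where higher, in blue where lower (limma adjusted p under 0.05) and in open grey where the threshold was missed. Values run from -4.96 (Ca7) to 6.02 (Ca3), and red and blue points occur together in every group except the sugar kinases, the HIF subunits and VEGF.

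The sugar transporters are the entry point, and 6 of the 10 were higher in NM-Rs, 2 lower and 2 not called. The 6 include Slc2a12 and the 2 not called include Slc2a2, both at the floor in every mouse. Of all genes, 39.7% were higher and 38.8% lower. Slc2a1 (GLUT1) is the basal glucose carrier of most cells. It had 974, 900 and 857 normalized counts in the mice, 6210, 4384 and 3932 in ssNM-R 2, 3 and 6, and 4908, 5498 and 3919 in lsNM-R 1, 4 and 5. Every NM-R spleen was above every mouse, and the mean was 5.28-fold higher (log2 fold change 2.38 ± 0.15 SE, limma adjusted p = 3.29e-07). Slc2a10 (GLUT10), a carrier of internal membranes, rose from 38.1, 34.8 and 22.0 in mice to between 315 (lsNM-R 4) and 547 (lsNM-R 5), with a median of 494. This was a 15.03-fold difference of means (3.88 ± 0.21, limma adjusted p = 1.11e-07).

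Slc2a4 (GLUT4) is the insulin-responsive carrier of muscle and fat, and adult mouse red cells carry it as well. It had 70.2, 148 and 203 normalized counts in mice, but 8.21, 21.0 and 44.2 in ssNM-Rs and 26.8, 21.9 and 23.8 in lsNM-Rs. All NM-R spleens were below all mice, 5.78-fold in the mean (-2.50 ± 0.48, limma adjusted p = 0.000793). Slc2a4 thus fell where Slc2a1 rose. The fructose carrier Slc2a5 was at 4 reads or fewer in each mouse and at 10.5 to 38.1 normalized counts in NM-Rs (limma adjusted p = 0.000297). Slc2a8 (187 ± 17.3 SD, n = 3, against 248 ± 19.5, n = 6) and the urate and fructose carrier Slc2a9 (187 ± 7.32 against 273 ± 29.9) were higher by 0.41 and 0.54 on the log2 scale. Slc2a12 was at the floor in mice and at least 2.21-fold higher in NM-Rs, with overlapping groups. The inositol carrier Slc2a13 was lower (46.6 ± 10.98 against 27.8 ± 8.71, limma adjusted p = 0.0294), a call lost when mouse 1, mouse 2, lsNM-R 4 or lsNM-R 5 was left out (limma adjusted p between 0.0559 and 0.121; over all alternatives 0.0127 to 0.21). Slc2a2, the liver carrier, was at 0 to 2.83 normalized counts in 8 spleens and at 10.7 in ssNM-R 6, and Slc2a6 (249 ± 26.1 against 253 ± 86.6) was not called.

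Hexokinases trap glucose in the cell by phosphorylation. Hk1, the main hexokinase of red cells, had 2373, 3437 and 3498 normalized counts in mice, 7045, 6191 and 4675 in ssNM-Rs and 5719, 5179 and 4672 in lsNM-Rs. The groups did not overlap, and the mean was 1.80-fold higher (0.85 ± 0.16, limma adjusted p = 0.000814). Hk2, the inducible hexokinase, and Hk3, that of white blood cells, did not pass the test (log2 differences 0.22 and -0.33, limma adjusted p = 0.323 and 0.0948). Hk2 was called higher without ssNM-R 6 (0.37, limma adjusted p = 0.00961) and with a depth class in the fit (0.53, adjusted p = 0.00804, with 0.00804 to 0.56 over all alternatives). Hk3 was called lower without ssNM-R 2 or lsNM-R 1 and at the same total (limma adjusted p = 0.0494, 0.0336 and 0.0435, with 0.0336 to 0.552 over all alternatives). Hk3 had 915, 819 and 978 normalized counts in mice, while NM-Rs ran from 522 (ssNM-R 6) to 1018 (lsNM-R 1), and it was lower in ssNM-Rs than in mice (-0.50), whereas lsNM-Rs were not called against mice; the cohorts differed by 0.34 (95% interval -0.09 to 0.77, limma adjusted p = 0.64). Ketohexokinase (Khk), which brings fructose into glycolysis, had 275 ± 8.89 normalized counts in mice against 287 ± 42.2 (0.05 ± 0.12, limma adjusted p = 0.699).

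In upper glycolysis phosphofructokinase commits the sugar, aldolase splits it and Tpi1 interconverts the products. Of these 6 genes 4 were higher and 2 lower, against 39.7% and 38.8% of all genes. Tpi1 had the highest normalized counts of the 6, not corrected for length, with 1631, 1750 and 1720 normalized counts in mice against 2789 (lsNM-R 5) to 3840 (ssNM-R 6), a 2.00-fold difference (0.99 ± 0.09, limma adjusted p = 3.24e-06). The 3 phosphofructokinase genes parted. The liver type Pfkl (1189 ± 69.9 against 1833 ± 336, 0.60 ± 0.11) and the muscle type Pfkm (499 ± 104 against 923 ± 145, 0.89 ± 0.15), both subunits of the red cell enzyme, were higher. The platelet type Pfkp was lower (1367 ± 65.4 against 810 ± 140, -0.77 ± 0.13), and all 3 passed the test with groups that did not overlap.

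The brain aldolase Aldoc fell from 94.3, 68.5 and 62.9 to between 18.3 and 45.1 (-1.38 ± 0.30, limma adjusted p = 0.00182). Gpi, the isomerase between both kinases, fell 1.83-fold from 5232 ± 59.0 to 2865 ± 166 (-0.87 ± 0.08, limma adjusted p = 3.59e-06).

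Lower glycolysis, from Gapdh to pyruvate kinase, makes the ATP. Of the 10 genes grouped here by symbol 6 were higher and 4 lower, against 39.7% and 38.8% of all genes. The 6 include Pgam5, a mitochondrial phosphatase that shares the symbol of the mutases and is not a step of glycolysis. They also include Eno4, which was at the floor in every mouse and entered the table through its NM-R reads. Pklr encodes the pyruvate kinase of red cells and liver. It had 198, 489 and 682 normalized counts in the mice, 7871, 6918 and 5995 in ssNM-Rs and 7626, 10484 and 6453 in lsNM-Rs. The lowest NM-R lay far above the highest mouse, the mean was 16.6-fold higher, and the log2 fold change of 4.2 ± 0.33 was the largest of the 44 genes (limma adjusted p = 1.32e-06). Pkm, the pyruvate kinase of most other cells, went the other way, from 6410, 6185 and 6286 in mice to 3907, 4698 and 3734 in ssNM-Rs and 4703, 3415 and 3630 in lsNM-Rs (-0.66 ± 0.12, limma adjusted p = 0.00055). No NM-R spleen reached the mouse level of Pkm.

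Gapdh, which oxidizes the triose, had the highest normalized counts of the 44 genes, not corrected for length: 8394, 8823 and 9225 in mice, 18014, 17817 and 16340 in ssNM-Rs and 16745, 13800 and 12452 in lsNM-Rs. All NM-Rs were above all mice, 1.80-fold in the mean (0.84 ± 0.12, limma adjusted p = 9.25e-05). The mutase Pgam1 was 3.67-fold higher (486 ± 26.7 against 1786 ± 156), the neuronal enolase Eno2 2.86-fold (68.0 ± 5.59 against 195 ± 29.6) and the mitochondrial phosphatase Pgam5 1.58-fold. Eno4 was at the floor in mice and at least 3.89-fold higher. Lower in NM-Rs were the muscle mutase Pgam2 (19.1, 6.52 and 10.5 in mice against 0 to 3.00), the muscle enolase Eno3 (501 ± 48.0 against 242 ± 18.7) and Pgk1 (1303 ± 25.8 against 1070 ± 73.1). The fall of Pgk1 was small (-0.29 ± 0.08, limma adjusted p = 0.00885) and missed the threshold when libraries were scaled to the same upper quartile (limma adjusted p = 0.0621, the highest over the alternatives, which began at 0.00196).

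Some of these genes have near-identical copies in the mouse genome. Of the 100-base windows of the transcript, the read length, 89.8% for Pgk1, 87.1% for Pgam1, 85.1% for Gapdh and 10.8% for Pkm also occurred elsewhere in mm9. The share was 9.38% for Ldhb and 7.69% for Tpi1, 9.39% for Gpi, and under 1% for each of the other 52 genes. Levels of Pgk1, Pgam1 and Gapdh are therefore uncertain, since the counting may have lost or split such reads in the mouse; copies in the NM-R genome were not analysed here.

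Of the lactate dehydrogenases, the heart type Ldhb rose from 112, 104 and 112 normalized counts in mice to 737, 679 and 911 in ssNM-Rs and 888, 537 and 841 in lsNM-Rs. This was a 6.98-fold difference with no overlap (2.77 ± 0.17, limma adjusted p = 2.05e-07). The D-lactate enzyme Ldhd fell from 38.1, 47.8 and 31.5 to between 8.21 and 20.9 (-1.53 ± 0.32, limma adjusted p = 0.00155). The testis type Ldhc was at the floor in mice and at 0 to 14.1 in NM-Rs, at least 1.95-fold higher with overlapping groups, and the call was lost without mouse 1, mouse 2 or lsNM-R 1 (limma adjusted p = 0.112, 0.11 and 0.0623, over all alternatives 0.00467 to 0.112).

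Pyruvate dehydrogenase kinases shut pyruvate out of the mitochondrial citric acid cycle. Pdk1, a classical HIF target, had 1611, 1529 and 1642 normalized counts in mice, 636, 553 and 671 in ssNM-Rs and 675, 569 and 645 in lsNM-Rs, 2.55-fold lower with no overlap (-1.35 ± 0.09, limma adjusted p = 4.78e-07). Pdk2 moved the opposite way, from 324, 313 and 296 to between 675 (lsNM-R 4) and 876 (lsNM-R 1), 2.57-fold higher (1.35 ± 0.10, limma adjusted p = 7.17e-07). Pdk4, the kinase of fasting, fell from 425, 451 and 506 in mice to 20.5, 15.01 and 205 in ssNM-Rs and 57.9, 12.7 and 153 in lsNM-Rs (-3.34 ± 0.87, limma adjusted p = 0.00532). The NM-R values of Pdk4 spread widely, and its highest were in ssNM-R 6 and lsNM-R 5, the spleens with the most liver marker RNA; the part of that RNA was not tested.

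**Figure D2:**
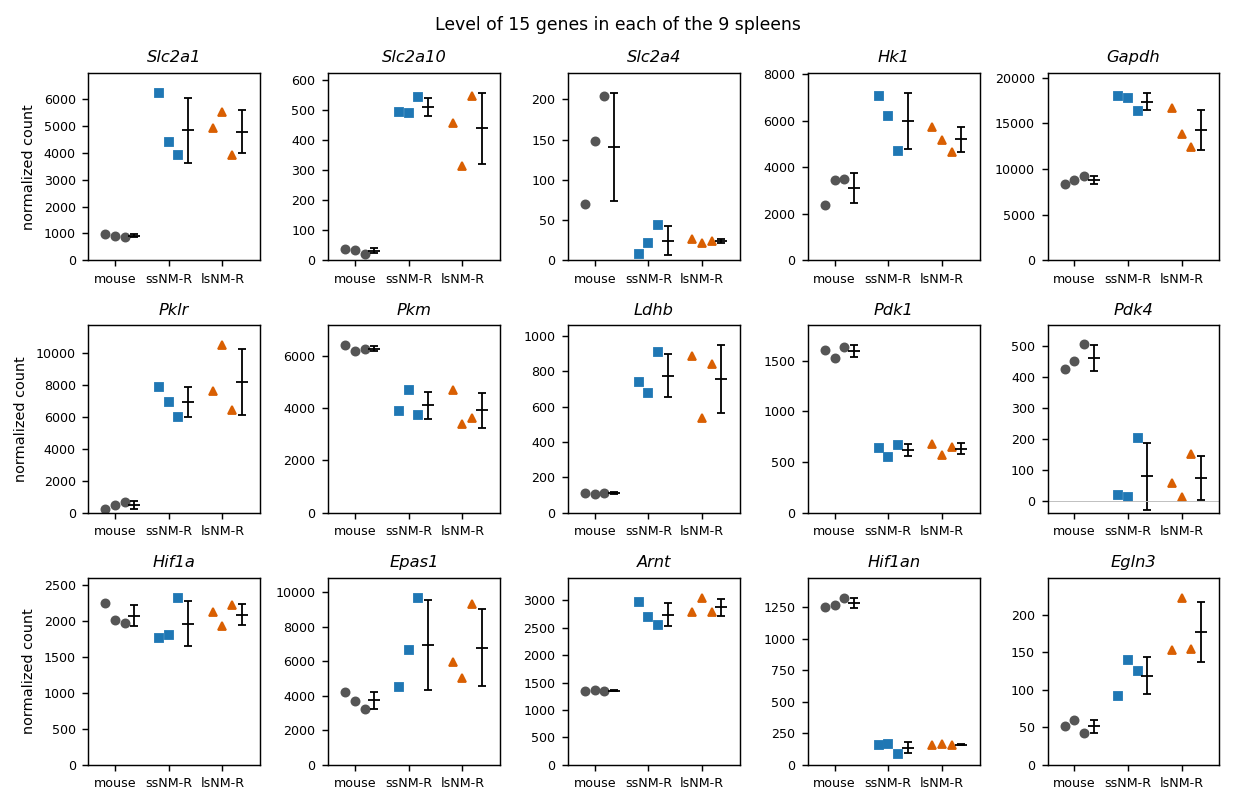
Normalized counts of 15 genes are plotted for each of the 9 spleens, with 3 animals per group (circles for mice, squares for ssNM-Rs, triangles for lsNM-Rs) and the group mean ± SD beside them. Slc2a1, Pklr, Ldhb and Arnt are higher and Pkm, Pdk1 and Hif1an lower in every NM-R than in every mouse, whereas Hif1a overlaps.

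Among the HIF subunits, Hif1a showed no detectable difference. It had 2248, 2010 and 1973 normalized counts in mice, 1764, 1800 and 2326 in ssNM-Rs and 2121, 1931 and 2220 in lsNM-Rs, and the groups overlapped (-0.04 ± 0.11, limma adjusted p = 0.739). Epas1 (HIF-2 alpha), the subunit tied to erythropoietin control, had 4235, 3704 and 3257 in mice, 4513, 6690 and 9698 in ssNM-Rs and 5990, 5061 and 9332 in lsNM-Rs. It was 1.84-fold higher without overlap (0.83 ± 0.25, limma adjusted p = 0.0112). The highest values were in ssNM-R 6 and lsNM-R 5, both deep libraries and the spleens with the most liver marker RNA. The remaining deep library, lsNM-R 4, had 5061, below the shallow ssNM-R 3 (6690) and lsNM-R 1 (5990). The part of depth or of liver marker RNA in Epas1 was not tested. The call was lost without mouse 3 (limma adjusted p = 0.0549) and with the depth class in the fit (0.58, limma adjusted p = 0.0684, with 0.000771 to 0.0684 over all alternatives). Arnt, the shared partner, was the most even of the 3, with 1349, 1357 and 1349 in mice, 2969, 2701 and 2552 in ssNM-Rs and 2781, 3048 and 2787 in lsNM-Rs. It was 2.08-fold higher (1.05 ± 0.08, limma adjusted p = 7.89e-07).

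The hydroxylases that restrain HIF split. Hif1an (FIH), the asparaginyl hydroxylase that blocks HIF from its coactivators, (chr19:44637340-44650764 in mm9) fell from 1250, 1265 and 1324 in mice to 159, 164 and 84.7 in ssNM-Rs and 158, 162 and 154 in lsNM-Rs. Each NM-R spleen was far below each mouse, 8.72-fold in the mean (-3.15 ± 0.19, limma adjusted p = 2.22e-07). Egln2 (PHD1), a prolyl hydroxylase, was lower, with 1397, 1530 and 1504 in mice against 957, 977 and 812 in ssNM-Rs and 932, 807 and 748 in lsNM-Rs (-0.77 ± 0.10, limma adjusted p = 4.73e-05). Egln3 (PHD3), itself a HIF target, was higher, with 52.2, 59.8 and 42.0 in mice against 91.6, 140 and 125 in ssNM-Rs and 153, 223 and 154 in lsNM-Rs (1.47 ± 0.20, limma adjusted p = 8.53e-05). Of the vessel growth factors, Vegfb had 263, 265 and 286 in mice and 413 to 613 in NM-Rs (0.83 ± 0.13, limma adjusted p = 0.000229), while the lymphatic factor Vegfc (168 ± 19.0 against 185 ± 27.8) did not pass the test (0.13 ± 0.15).

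Carbonic anhydrases interconvert carbon dioxide and bicarbonate, and of the 14 rows 9 were higher in NM-Rs, 3 lower and 2 not called. The 9 include Ca5a, Ca6 and Ca14, and the 2 not called include Ca4, all at the floor in every mouse. Ca5a, Ca6 and Ca14 entered the table through their NM-R reads. Of all genes, 39.7% were higher and 38.8% lower. Ca1 and Ca2, the red cell enzymes, lie with Ca3 and Ca13 between bases 14641727 and 14900769 of mouse chromosome 3. Ca1 had 1048, 2369 and 2958 normalized counts in mice against 15591 (lsNM-R 4) to 24877 (ssNM-R 2), 9.61-fold higher (3.37 ± 0.28, limma adjusted p = 1.98e-06). Ca2 had 3106, 10280 and 15024 in mice and 14928 to 19471 in NM-Rs, so the groups overlapped at mouse 3 (1.12 ± 0.40, limma adjusted p = 0.0253). The Ca2 call was lost in edgeR (adjusted p = 0.0501) and with the depth class in the fit (1.10, limma adjusted p = 0.0681, with 0.003 to 0.0681 over all alternatives). In lsNM-Rs alone Ca2 was not called against mice (1.08 ± 0.46, limma adjusted p = 0.0539). Ca3, an enzyme of muscle, fat and liver, rose 51.9-fold, from 17.1, 16.3 and 75.5 to between 1559 and 2168 (6.02 ± 0.41, limma adjusted p = 4.62e-07). Adipose markers summed to 347 to 485 in mice and 1328 to 2346 in NM-Rs, and skeletal muscle markers to 270 to 348 and 1068 to 1804, mostly from Myh1, while the muscle creatine kinase Ckm stayed at 34.1 or less; their part in Ca3 was not tested.

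Ca9, the membrane enzyme induced by HIF, was higher, with 53.2, 45.7 and 45.1 in mice and 186 to 233 in NM-Rs (2.05 ± 0.14, limma adjusted p = 3.85e-07). Ca7, an enzyme of brain and muscle, had 36.1, 32.6 and 23.1 in mice and was listed at 0 in all 6 NM-Rs, at least 9.80-fold lower. The membrane enzyme Ca12 was at the floor in NM-Rs and at least 9.76-fold lower. The mitochondrial Ca5b (2.80-fold) and the catalytically inactive Ca11 (5.64-fold) were higher and the inactive Ca8 was lower (3.24-fold). Ca5a, Ca6 and Ca14 were at the floor in mice and at least 5.89-fold, 2.51-fold and 3.17-fold higher, and Ca4 and Ca13 were not called. Ca4 was called higher without lsNM-R 4 (1.50, limma adjusted p = 0.0202, with 0.0202 to 0.458 over all alternatives). Ca13 was called lower in 5 alternatives, among them DESeq2 (adjusted p = 0.0492) and the fit without ssNM-R 3 (limma adjusted p = 0.0169, with 0.0169 to 0.183 over all alternatives).

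Within the mice alone, per kilobase of annotated exon, Ca2 (5293 ± 3354 normalized counts per kilobase, SD, n = 3), Gapdh (3912 ± 185), Pkm (2632 ± 47.1), Ca1 (1801 ± 829) and Gpi (1163 ± 13.1) had the highest levels of the 59. Ca2 overlapped Gapdh, Pkm and Ca1 across the mice, and Ca1 also overlapped Gpi, whereas Gapdh, Pkm and Gpi kept apart from each other. Among the pyruvate kinases the mouse level of Pkm was far above that of Pklr (141 ± 75.3). Lengths of the NM-R gene models were not analysed here, so no such order is given for NM-Rs.

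The balance between related genes within a spleen largely cancels the size factor, so the log2 ratio of 7 gene pairs was compared between species with an exact 2-sided permutation test of 3 against 6 spleens, whose smallest possible p is 0.0119. The ratio is of normalized counts and only its shift between species is read. That shift still depends on the gene models, whose lengths need not differ between the species alike for both genes of a pair. For Pkm over Pklr it was 5.01, 3.66 and 3.20 in mice, -1.01, -0.56 and -0.68 in ssNM-Rs and -0.70, -1.62 and -0.83 in lsNM-Rs. All 6 NM-R values lay below all mouse values, a shift of -4.86 (exact permutation p = 0.0119, adjusted 0.0208 over the 7 pairs). Pklr was higher and Pkm lower in every NM-R than in every mouse, so this ratio had to separate. Its p restates those gene calls and is no further evidence. Ca1 over Ca2 shifted by 2.25, Pfkl over Pfkp by 1.37 and Hk1 over Hk3 by 1.18, each with the same smallest exact permutation p = 0.0119 (adjusted 0.0208). Pfkl and Pfkp also parted in opposite directions without overlap, so the p of their ratio was fixed in the same way. Hif1a over Epas1 shifted by -0.87, from between -0.91 and -0.72 in mice to between -2.07 and -1.35 in NM-Rs (exact p = 0.0238, adjusted 0.0333). Hk1 over Hk2 shifted by 0.63 (exact permutation p = 0.0357, adjusted 0.0417), a call that was lost when any 1 of the 3 mice was left out, or ssNM-R 3, lsNM-R 1 or lsNM-R 5 (exact permutation p between 0.0536 and 0.107). Pfkl over Pfkm did not pass the test (-0.29, exact p = 0.179).

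**Figure D3:**
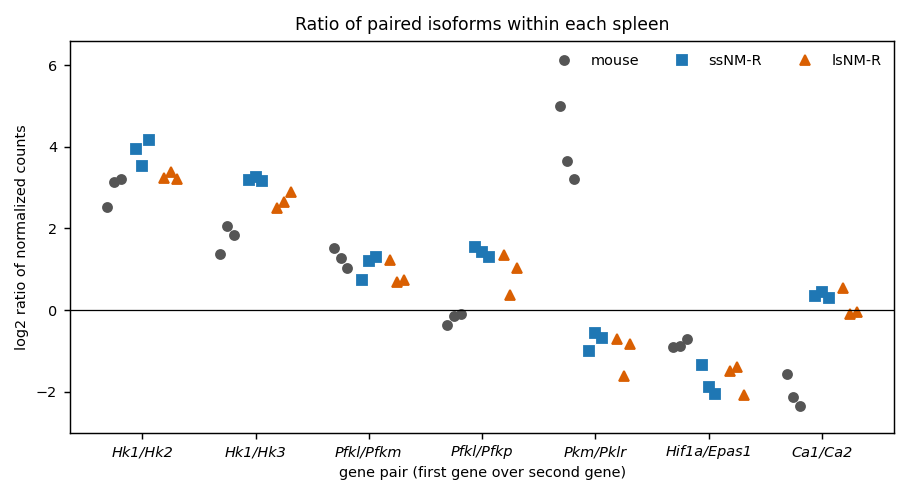
The log2 ratio of the normalized counts of 7 gene pairs is plotted for each spleen, with 0 as equal counts. Pkm over Pklr lies between 3.20 and 5.01 in the 3 mice and between -1.62 and -0.56 in the 6 NM-Rs, and Pfkl over Pfkm overlaps between the species.

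Several of the genes that rose are rich in red cells, so they were set against the summed erythroid markers of the same spleen, a description added after the data were seen. The sum holds no gene of the 59, and its largest parts are Slc4a1 (24.3%) and Alas2 (19.1%). Per 1000 erythroid marker counts, Pklr had 7.27, 7.73 and 8.54 in the mice, although its normalized counts and the markers were both lowest in mouse 1, and 32.4 to 44.7 in NM-Rs. It was the single one of the 44 genes whose NM-R values all stayed above the mice on this scale. The markers in the sum rose unevenly in NM-Rs, for example 2.07-fold for Klf1, 2.29-fold for Alas2, 9.29-fold for Tal1 and 11.7-fold for Epor. A gene's place on this scale therefore holds for the sum and not for every single marker. Slc2a1 had 35.8, 14.2 and 10.7 in mice and a narrow 23.2 to 25.6 in the 6 NM-Rs, so the species overlapped. Slc2a4 had 2.58, 2.34 and 2.55 in mice and 0.0338 to 0.271 in NM-Rs.

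Because the marker sum averaged 56789 in mice and 198958 in NM-Rs, division by it lowers most genes of the NM-R. Of the 44 genes, 26 lay lower in every NM-R than in every mouse on this scale, 17 overlapped and 1 lay higher. Of all genes, 67.5% lay lower and 7.50% higher. Hk1 had 87.2, 54.3 and 43.8 in mice and 22.1 to 32.8 in NM-Rs, Ca1 had 38.5, 37.4 and 37.0 against 66.5 to 122, and Ca2 had 114, 162 and 188 against 71.2 to 112. Each gene's part that follows the share of erythroid cells was not tested.

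**Figure D4:**
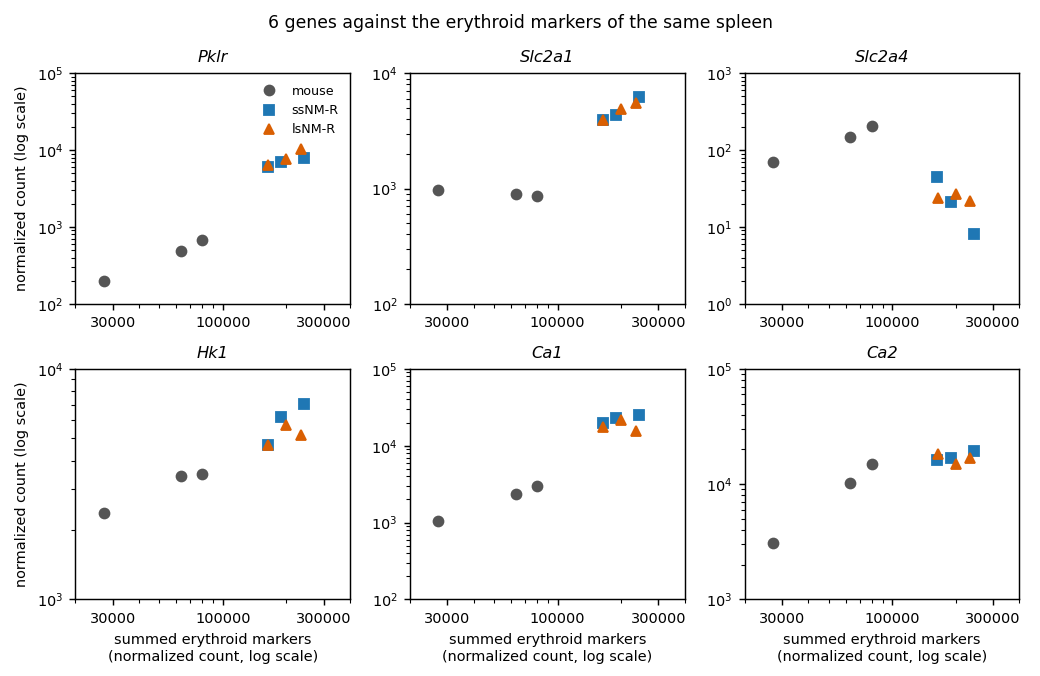
Normalized counts of Pklr, Slc2a1, Slc2a4, Hk1, Ca1 and Ca2 are plotted against the summed erythroid markers of the same spleen, both on log axes, for 3 mice (circles), 3 ssNM-Rs (squares) and 3 lsNM-Rs (triangles). In mice Pklr, Slc2a4, Hk1, Ca1 and Ca2 are lowest in mouse 1, which has the lowest marker sum (27204), and the 6 NM-Rs lie to the right at 163468 or more.

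Other genes around these steps were taken from lists of pathway genes. The counts of each list stand against 39.7% higher and 38.8% lower of all genes. Of 24 further glycolytic and gluconeogenic enzymes 16 were higher, 3 lower and 5 not called. Gckr, the regulator of glucokinase, was at the floor in mice and at 62.2 to 101 in NM-Rs, at least 25.7-fold higher, and Pfkfb1, whose product controls phosphofructokinase in liver and erythroid cells, fell from 83.5 ± 10.3 to 4 reads or fewer in each NM-R. Bpgm, which makes the 2,3-bisphosphoglycerate that tunes haemoglobin, was higher (7232 against 16130, 2.23-fold). The other two lower genes were of the same family, Pfkfb3 (4.95-fold) and Pfkfb4 (1.98-fold). In the pentose phosphate pathway 3 of 7 were higher (Pgd 1.23 on the log2 scale) and 3 lower (H6pd -1.48). In pyruvate entry into mitochondria 3 of 8 were higher (the pyruvate carrier Mpc2, 1.62) and 4 lower (the phosphatase Pdp2, -0.96).

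Of 6 genes of lactate transport 4 were higher and 1 lower, against 39.7% and 38.8% of all genes. The lactate carrier Slc16a1 averaged 1982 in mice against 10546 (2.44 ± 0.19), and its chaperone Bsg 4302 and 25938 (2.62 ± 0.20). The related chaperone Emb fell 16.0-fold, from 842 to 52.5. In fructose and polyol metabolism 3 of 6 were higher and 2 lower. Sorbitol dehydrogenase (Sord), which makes fructose, was higher (602 against 2017, 3.35-fold), and the hexosamine enzymes parted, Gfpt2 being 12.3-fold higher and Gfpt1 6.54-fold lower.

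Of 13 HIF partners and degradation factors 6 were higher, 4 lower and 3 not called, where 39.7% of all genes were higher and 38.8% lower. The membrane prolyl hydroxylase P4htm (61.2 against 378, 2.64 ± 0.18) and the inhibitory subunit Hif3a (53.8 against 237, 2.08 ± 0.27) were higher, and the ubiquitin-conjugating enzyme Ube2d1 was lower (-1.41 ± 0.10). Of 32 HIF target genes outside the core pathway 8 were higher, 11 lower and 13 not called, with a median log2 fold change of -0.23. The respiratory chain subunits Ndufa4l2 (3.26) and Cox4i2 (3.03) rose most. Pfkfb3 (-2.43), already counted among the lower glycolytic enzymes above, fell, as did the collagen hydroxylase Plod2 (-2.04) and the demethylase Kdm3a (-1.11). The 4 genes that the study itself names as hypoxia-induced, Epor (11.7-fold), Tfr2 (12.6-fold), Tfrc (4.504-fold) and Furin (3.39-fold), were all higher. They were chosen on these samples and are not independent evidence, and Epor and Tfrc are also erythroid markers. The study's own gene set enrichment found no significant change in sets regulated by hypoxia.

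Of 9 VEGF receptors and angiopoietins 5 were higher and 2 lower, against 39.7% and 38.8% of all genes. They ran from the coreceptor Nrp1 (1076 against 9452, 3.13 ± 0.13) to Angpt2 (234 against 10.4, 22.6-fold lower). Kdr, the main VEGF receptor, was not called (-0.27 ± 0.19), while endothelial markers summed to between 13551 and 16440 in mice and 7067 and 7999 in NM-Rs. Of 6 red cell gas and anion transport genes 4 were higher, among them the membrane anchor Ank1 (3.24) and the water channel Aqp1 (2.10), and the bicarbonate carrier Slc4a7 was lower (-1.53).

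Whether the enlarged spleens differ from the small ones was asked in the same fit. Between lsNM-Rs and ssNM-Rs 0 of the 44 genes passed the limma threshold, as did 0% of all 12946 genes, and the smallest limma adjusted p of the 44 was 0.442. At an unadjusted p under 0.05 there were 3 of the 44 (8.79% of all genes), and edgeR and DESeq2 also called 0 of the 44; DESeq2 called 0.417% of all genes. The cohorts did not overlap in 4 of the 44 (13.1% of all genes). The median log2 difference was -0.01, and 31 of the 44 intervals lay within 1 log2 unit of 0 on both sides, so for the other 13 a difference of more than 1 was not excluded. None of the genes of the pathway lists above passed the limma threshold between the cohorts.

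The smallest p belonged to Pfkl, which had 2005, 2234 and 2023 normalized counts in ssNM-Rs and 1890, 1398 and 1451 in lsNM-Rs (-0.41, 95% interval -0.69 to -0.14, limma adjusted p = 0.442). All lsNM-Rs were below all ssNM-Rs, and all NM-Rs were above the mice. Pgam5 had 1079, 989 and 839 in ssNM-Rs and 867, 778 and 685 in lsNM-Rs (-0.32, -0.60 to -0.04, limma adjusted p = 0.534), with 1 crossing pair of spleens. Egln3 was higher in each lsNM-R than in each ssNM-R (0.57, 0.04 to 1.10, limma adjusted p = 0.551). Gapdh (-0.29, -0.59 to 0.02) and Khk (-0.27, -0.58 to 0.04) followed, with limma adjusted p = 0.579 and 0.599. Slc2a1 (-0.01, -0.40 to 0.39), Pklr (0.22, -0.64 to 1.08), Hif1a (0.10, -0.18 to 0.38) and Arnt (0.07, -0.13 to 0.27) had intervals across 0.

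Of the related rows, Ca14 had 9.57, 1.501 and 1.90 normalized counts in ssNM-Rs and 15.5, 21.2 and 10.03 in lsNM-Rs (1.91, 0.58 to 3.24, limma adjusted p = 0.445), and Ca5b was at 0.60 (0.07 to 1.13, limma adjusted p = 0.534). Erythroid markers summed to 163468 to 242966 in ssNM-Rs and 164423 to 234574 in lsNM-Rs.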

How the data were processed

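Total spleen RNA was sequenced in 1 library per animal. The authors mapped mouse reads to mm9 and NM-R reads to a genome of their own species with STAR 2.5.3a, counted reads per gene with HTSeq 0.10.0 and gave NM-R genes the symbols of their mouse homologues. The deposited signal values are read counts divided by 1 DESeq2 size factor per library over both species, without correction for gene length. The strand setting and the rule for reads with several matches are not given in the sources used here. All values were whole multiples of 1 step per library (100% within 0.01), so reads could be recovered for the alternatives and for the floor of 3 reads.

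Fits used limma 3.58.1 in R 4.3.3 on log2(value + 1), so fold changes of low genes are understated. They took all 9 spleens, 3 groups, no filter beyond that of the study and Benjamini-Hochberg adjusted p under 0.05 over 12946 genes. The study had removed genes with low read sums over all samples. A gene at the floor in mice therefore entered through its NM-R reads. The fit was tested on simulated data. NM-R against mouse is the mean of both cohorts against mice. Ratios of means, SD and levels are on the linear scale. The spleens are separate animals. Gene pairs were tested exactly with scipy 1.17.1. The members, pathway lists and marker lists (erythroid, B cell, T cell, granulocyte, macrophage, megakaryocyte, smooth muscle, endothelium, skeletal muscle, liver, pancreas, adipose) were chosen with earlier results of these data known. Genes were given per spleen where they had, within a role, the highest mean or the largest change in either direction, plus all HIF subunits and hydroxylases; in pathway lists the extremes with a mean of at least 50 in 1 species were named, and others were added for their known role after their values were seen. Positions, exon lengths, promoters and shared windows came from mm9. Alternatives were edgeR 4.0.16, DESeq2 1.42.0, pseudocounts of 0.5 and 5, a minimum mean of 10, other scalings, no trend, only the compared groups, a replicate block, a depth class and leaving out each spleen. No column was without a sample (0). Of all rows, 170 share their NM-R values with another row, and 0 of the 44 genes do. The values of 1 of the 44 genes, which stays in the counts, are not reported here.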

Additional observations from a re-analysis of the deposited data

Results flagged for a closer look

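Among 57 genes tested, 5 had 1 NM-R spleen that stood apart from the other 5 by Dixon's gap-to-range ratio, and about 1 in 20 groups is flagged by chance. Hif1an was lowest in ssNM-R 6, at 84.68 normalized counts against 153.6 to 163.6 in the others. Pfkp was highest in lsNM-R 4, at 1071 against 687.8 to 830.2. Slc2a2 was highest in ssNM-R 6, at 10.74 against 0 to 2.825, and that spleen also had the highest liver marker sum (3009). Slc2a6 was highest in lsNM-R 1, at 425.1 against 195.3 to 245.2. Ca5a was also highest in lsNM-R 1, at 35.31 against 13.27 to 18.81. None of these spleens crossed the mouse range in Hif1an, Pfkp or Ca5a.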

How the results depend on the processing

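Over 1948 recomputed values, the cause of each change was not tested. The counts of genes higher and lower in NM-Rs kept within 1.5 times their value under every alternative run, from 22 to 25 higher and 12 to 14 lower when 1 spleen was left out, with 11 lower under the same upper quartile and 14 under the same total. Leaving out 1 spleen gave 19 to 22 higher and 12 to 14 lower for ssNM-Rs, 22 to 25 and 11 to 12 for lsNM-Rs, and 0 between the cohorts. The shift of Hk1 over Hk2 ran from 0.42 to 0.76 and missed the threshold without mouse 1, 2 or 3, ssNM-R 3, lsNM-R 1 or lsNM-R 5. The sign turned in genes near 0. Hif1a was at 0.05 under the same upper quartile and -0.10 to 0.02 when 1 spleen was left out. Khk was at -0.00071 under the same total and -0.0046 to 0.11 when 1 spleen was left out. Slc2a2 was at -0.04 without ssNM-R 6 and up to 1.11. Slc2a6 was at 0.07 under the same upper quartile, 0.03 in edgeR, 0.01 in DESeq2, 0.16 with the depth class and -0.19 to 0.09 when 1 spleen was left out. With the replicate number as a block, Slc2a6 was at 0.21 and Gapdh between the cohorts at 0.01. The median of all genes was 0.01, 0.10 under the same upper quartile and -0.04 under the same total.

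The replicate numbers do not pair the spleens, since they name different animals and same-numbered spleens did not deviate together (r of 0.0101, -0.00453 and 0.000765). With the block, 23 genes were higher and 12 lower in NM-Rs, 21 and 11 in ssNM-Rs, 18 and 7 in lsNM-Rs, and 0 between the cohorts. The block ended the calls of Slc2a12, Ldhc and Slc2a13 (limma adjusted p = 0.101, 0.0892 and 0.21) and gave one to Hk2 (0.0165).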

Other observations

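Markers of other cells of the spleen also differed between the species, where 39.7% of all genes were higher in NM-Rs and 38.8% lower. The T cell markers (12 in the table) summed to between 17304 and 18783 normalized counts in mice and to between 4290 and 8819 in NM-Rs, and all 12 were lower in NM-Rs, as were all 11 B cell markers. All 12 erythroid markers were higher. Granulocyte markers summed to between 8233 and 10679 in mice and 26856 and 46219 in NM-Rs, with 7 of 9 higher and 2 lower. Macrophage markers overlapped in their sums (54533 to 67303 and 61844 to 90237), with 4 of 12 higher and 6 lower. Megakaryocyte markers summed to 4984 to 6989 and 8200 to 15047, with 2 of 7 higher and 2 lower, and smooth muscle markers to 8670 to 11894 and 20563 to 40561, with 7 of 10 higher and 1 lower. Of 10 endothelial markers 2 were higher and 4 lower, of 9 adipose markers 5 were higher, and of 9 skeletal muscle markers 4 were higher and 3 lower. Pancreas markers summed to 365 to 514 in mice and 136 to 232 in NM-Rs, with 2 of 5 higher and 1 lower, and of 11 liver markers 2 were higher and 2 lower.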
